A study of Arabidopsis thaliana with 6 samples.

Results

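Plant U-box (PUB) proteins are ubiquitin ligases, the enzymes that choose which protein receives ubiquitin and so, in many cases, which protein is sent to the 26S proteasome. The U-box is the fold that binds the ubiquitin-conjugating enzyme (E2), which brings ubiquitin from the activating enzyme (E1). PUB22, PUB23 and PUB24 are known as a trio that jointly restrains immune signalling after leaf cells perceive a microbe, and PUB22 and PUB23 also dampen drought responses. PUB19 is known, with its relative PUB18, for restraining responses to abscisic acid and drought. Another family member, PUB4, is known from other work for marking chloroplasts damaged by singlet oxygen; it is not analysed here.

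The 5 genes described here are PUB19, PUB22, PUB23 and PUB24, selected by symbol, and AT1G23030, a U-box gene included as a contrast in the lower direction. They are 5 of 13356 genes that have a probe set of their own in the platform annotation. Each has 1 probe set, namely 252045_at for PUB22 (AT3G52450), 263935_at for PUB23 (AT2G35930), 258787_at for PUB24 (AT3G11840), 264217_at for PUB19 (AT1G60190) and 264770_at for AT1G23030. They were chosen with their differences between the genotypes in view, so those differences are given as a description without a test. No sequence of the genes or their promoters was used here.

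Rosette leaves of Arabidopsis thaliana in the Landsberg erecta ecotype came from the wild type (called Ler) and from the flu mutant (allele flu1-1 in the same ecotype). Plants of both genotypes were 3 weeks old and not yet bolting, had been raised in continuous light, spent 8 h in darkness, and were sampled after 30 min, 60 min or 2 h of renewed light. FLU holds back chlorophyll precursor synthesis in the dark, and in its absence the accumulated protochlorophyllide releases singlet oxygen in the plastids once light returns. Each of the 6 combinations was 1 Affymetrix ATH1 array of leaves from 5 to 6 plants per sample, with RNA of 2 experiments pooled, so the values are unreplicated and precision is limited by how few arrays there are. No array here is of plants still in the dark, and a difference present before the light cannot be told apart from one that came with it.

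Values are MAS5 signals, a linear intensity per probe set that depends on the probes, so signals are compared only between arrays for the same gene. The median of all signals was 185, and the 2% trimmed mean was the same on every array. The leaf label fits the 3 measured of 8 leaf markers (RCA, LHCB4.1 and PRK), with signals from 10786 to 23291, and the 1 measured of 8 markers of other tissues, AT5G66390, lay between 1.90 and 21.4. The summed signal of the 3 leaf markers was 53449 to 61333 on the Ler arrays and 39830 to 46143 on the flu arrays. Each marker was lower in flu at 3 of 3 times. The median difference over all tested probe sets was also below 0 at each time (-0.04, -0.08 and -0.20 on the log2 scale used below). In the limma fit described further on, all 3 markers had an unadjusted p under 0.05, as had 1464 of 13064 probe sets in this direction. None was called (limma adjusted p from 0.0558 to 0.160), and the part of this difference in the results was not tested. The flu array of 30 min also had the lowest hybridisation controls (geometric mean 1036, against 1477 to 1771 elsewhere), and their part was not tested either. In whole leaves, fewer cells of a type and less RNA per cell cannot be told apart.

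PUB23 had the largest mean genotype difference of the 5 genes, and it was already high in flu at 30 min. Its signals after 30 min, 60 min and 2 h were 77.2, 5.09 and 56.6 in Ler. In flu they were 731, 888 and 448. All flu arrays lay above all Ler arrays, every Ler value was under the median signal of the arrays, and the flu values were highest at 60 min and lowest at 2 h. On the scale log2(signal + 50), used for all differences here, flu minus Ler was 2.62, 4.09 and 2.22 at the 3 times, with a mean of 2.98 ± 0.98 (SD over the 3 times). The height of the 60 min value rests on a Ler signal near background, since it was 5.42 with an offset of 16 and 3.23 with an offset of 100. At each of these offsets the 60 min difference was above the other two. Of all 13064 probe sets tested, 0.612% differed by at least as much in this direction at 30 min, 0.207% at 60 min and 3.67% at 2 h.

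PUB22, a close relative of PUB23, was the member whose genotype difference varied least over the times. Its Ler signals were 52.6, 64.4 and 33.7 in order of time. In flu they were 167, 187 and 169.5. The groups did not overlap, but the gene was dim throughout: no Ler array and only the flu array of 60 min reached the median signal. Flu minus Ler was 1.08, 1.05 and 1.39, with a mean of 1.18 ± 0.19 (SD over the 3 times). Within flu the level at 2 h differed from that at 30 min by 0.01, and within Ler by -0.29, both on the log2 scale. Because of the low Ler signals the mean was 1.55 with an offset of 16 and 0.88 with an offset of 100.

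PUB24, the third member of the immune trio, was nearest to its Ler level at 30 min and well above it at both later times. Ler signals were 327, 266 and 238. Flu signals were 518, 1633 and 1253. The lowest flu value was above the highest Ler value, and the flu arrays of 60 min and 2 h stood apart from the flu array of 30 min. The differences were 0.59, 2.41 and 2.18, with a mean of 1.73 ± 0.99 (SD over the 3 times). Unlike PUB22 and PUB23, this gene reached the median signal on all 6 arrays, so its differences depend little on the offset (2.55 and 2.24 at 60 min with offsets of 16 and 100).

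PUB19, the abscisic acid related member, had the latest difference. Its Ler signals were 409.7, 328 and 98.5, the lowest being that of 2 h. Its flu signals were 329, 962 and 1516, with the highest at 2 h. The genotypes overlap, as the flu array of 30 min lay below that of Ler at the same time. Flu minus Ler was -0.28, 1.42 and 3.40, and the mean of 1.51 ± 1.84 (SD over the 3 times) hides this order. It was 2.41 without the 30 min arrays and 0.57 without those of 2 h. At 2 h the flu signal was 15.4 times the Ler signal, the widest ratio of the 5 genes at that time, and 1.11% of all tested probe sets had a log2 difference at least as high.

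AT1G23030 carries no symbol in the annotation and was included as the gene that is lower in flu, which its values bear out only from 60 min on. Ler signals were 694, 1353 and 1148. Flu signals were 1129.7, 535 and 227. At 30 min flu was above Ler, at 60 min and 2 h below it, and the groups overlap. The differences were 0.66, -1.26 and -2.11, with a mean of -0.90 ± 1.42 (SD over the 3 times). Without the 30 min arrays the mean was -1.69, and without those of 2 h -0.30. At 2 h only 0.230% of tested probe sets had a difference at least as low.

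**Figure D1:**
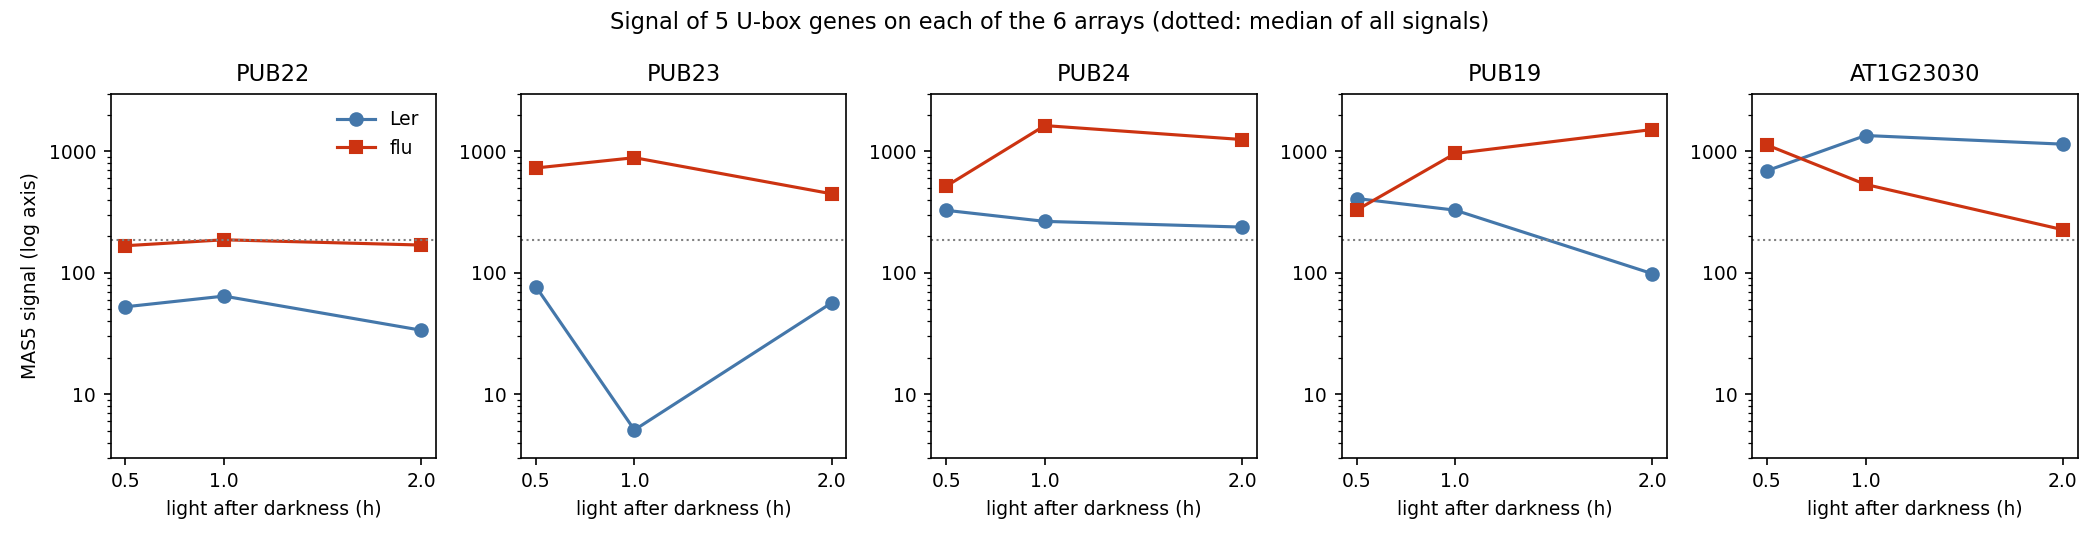
MAS5 signal (log axis) of each of the 5 U-box genes against hours of light, with blue circles for Ler and red squares for flu; every point is 1 array, and the dotted line is the median of all signals (185). PUB22, PUB23 and PUB24 have all flu points above all Ler points, PUB19 parts with time, and AT1G23030 crosses between 30 and 60 min.

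The genotype differences of the 5 genes thus had different orders over time. At 30 min 2 of the 5, PUB22 and PUB23, were at least 2-fold higher in flu, a size reached in that direction by 2.98% of tested probe sets. At 60 min and at 2 h 4 of the 5 were (all but AT1G23030), against 6.12% and 10.1% of probe sets. PUB22 lies close to this limit: with an offset of 100 the counts were 1 at 30 min and 3 at 60 min, and with quantile normalization 3 at 60 min. At least 2-fold lower in flu were 0 of the 5 at 30 min and 1, AT1G23030, at 60 min and at 2 h, against 0.413%, 1.44% and 5.50%. All flu arrays were above all Ler arrays for 3 of the 5 genes and for 9.36% of probe sets. Since these genes were chosen by this comparison, nothing is read from the counts.

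**Figure D2:**
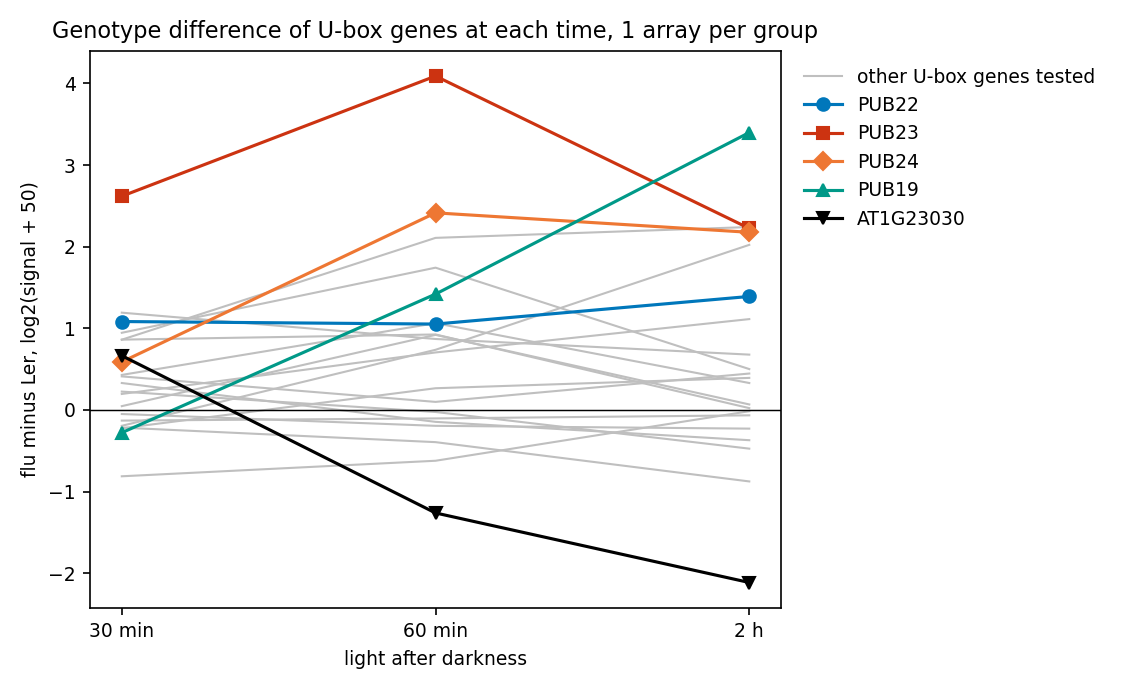
Flu minus Ler on the scale log2(signal + 50) at each of the 3 light times for the 5 genes (coloured lines) and for 16 other U-box genes with a tested probe set (grey); each point is the difference of 2 arrays. PUB23 is highest at 60 min (4.09), PUB19 is highest at 2 h (3.40), PUB22 stays between 1.05 and 1.39, and AT1G23030 is at -2.11 by 2 h.

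The same arrays show what each genotype did from 30 min to 2 h of light. In Ler, PUB19 was lower at 2 h than at 30 min by a log2 difference of -1.63, and most of that lay between 60 min and 2 h (-1.35). Between these Ler arrays 1.40% of probe sets were at least 2-fold lower at 2 h, and 0.168% had a change at least as low as that of PUB19. The Ler changes of PUB24 (-0.39), PUB22 (-0.29) and PUB23 (-0.25) were small beside it, although PUB23 was lower at 60 min than at 30 min by -1.21, a 2-fold lower level reached by 0.490% of probe sets. That step rests on the Ler signal of 5.09 and was -2.14 with an offset of 16 and -0.75 with one of 100. AT1G23030 was higher at 2 h in Ler by 0.69, having been higher still at 60 min (0.91 above 30 min).

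Within flu the order was different. PUB19 was higher at 2 h than at 30 min by 2.05 and PUB24 by 1.20, in a pair of arrays in which 7.43% of probe sets were at least 2-fold higher. For PUB24 the step lay between 30 and 60 min (1.57), followed by -0.37. For PUB19 the first step was 1.42 and the second 0.63, and 2.75% of probe sets were at least 2-fold higher over the first step. PUB23 was lower at 2 h than at 60 min by -0.91, short of 2-fold. AT1G23030 had similar steps of -1.01 and -1.08, where 0.574% and 1.84% of probe sets were at least 2-fold lower. These add up to -2.09, and 4.63% of probe sets were at least 2-fold lower at 2 h than at 30 min in flu.

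PUB19 and AT1G23030 thus had opposite changes in the 2 genotypes. A change of at least 2-fold down in Ler together with at least 2-fold up in flu, as for PUB19, was found for 27 of 13064 probe sets (0.207%). The reverse, at least 1.5-fold up in Ler and 1.5-fold down in flu, as for AT1G23030, was found for 100 (0.765%). Both size limits were set after the values were seen, and with 1 array per group these changes have no test.

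**Figure D3:**
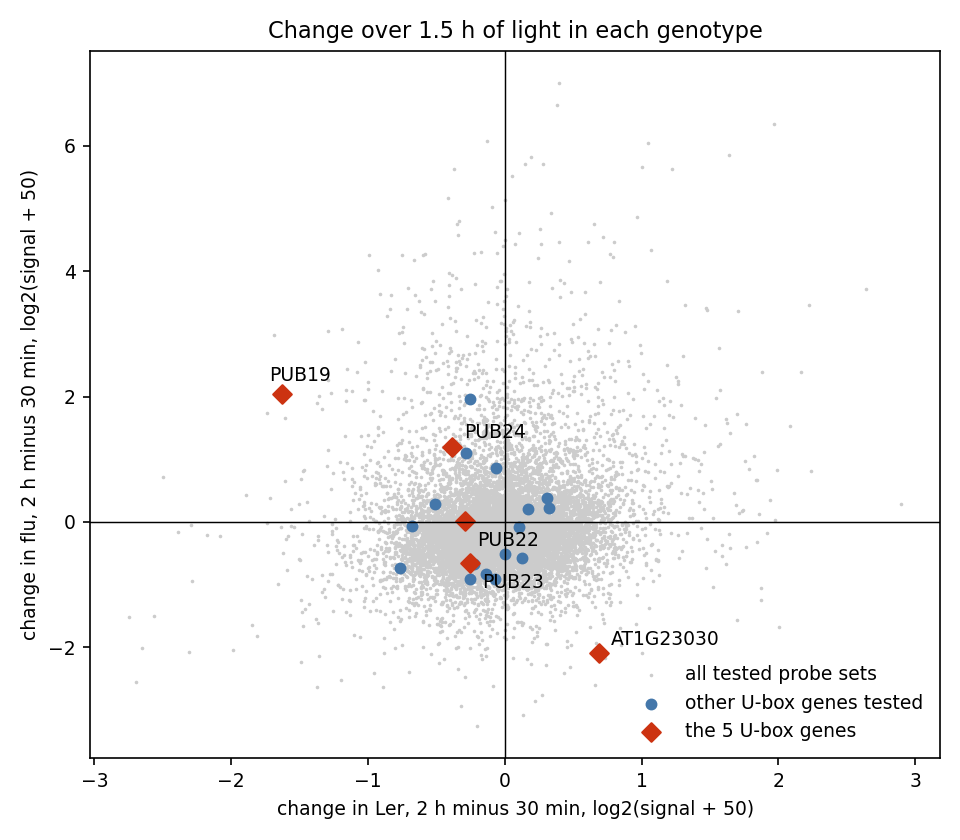
Change from 30 min to 2 h of light in flu (vertical) against that in Ler (horizontal), both on the scale log2(signal + 50), for all 13064 tested probe sets (grey), 16 other U-box genes (blue circles) and the 5 U-box genes (red diamonds). PUB19 lies at -1.63 in Ler and 2.05 in flu, AT1G23030 at 0.69 and -2.09, and PUB22 near 0 in flu.

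The change from 30 min to 2 h over both genotypes together was taken from a limma fit with an additive term each for time and genotype. The genes were chosen with earlier results of these same arrays known, so this is not an independent test of them. None of the 5 genes passed, and PUB22 and PUB23 were in the tested set through flu arrays alone. The estimates were -0.45 (SE 0.45) for PUB23, -0.14 (SE 0.36) for PUB22, 0.41 (SE 0.44) for PUB24, 0.21 (SE 0.76) for PUB19 and -0.70 (SE 0.60) for AT1G23030, with adjusted p from 0.648 to 0.917. In this limma contrast 0 of 13064 probe sets (0%) were called, and 1492 had an unadjusted p under 0.05. For PUB19 the 2 genotypes enter with opposite signs and largely cancel. They partly cancel for PUB24 (-0.39 in Ler, 1.20 in flu) and AT1G23030 (0.69 in Ler, -2.09 in flu). For all 5 genes, PUB22 and PUB23 included, not passing does not show that the level stayed the same.

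Other U-box genes were taken from a list of 52 loci beside the 5, drawn up from general knowledge of the family and named by locus where the annotation has no symbol. For 29 of them the annotation had a probe set of 1 gene, and 16 reached the median signal on at least 1 array and were tested. The test was flu minus Ler in the same limma fit, whose calls (adjusted p under 0.05) took in 2.87% of all probe sets as higher in flu and 0.375% as lower. Each genotype has 3 arrays here, 1 per time, and no replicates within a time. The p-values set a difference against its spread over times, moderated by a variance estimated from all tested probe sets. That shared variance carries 4.18 degrees of freedom, against 2 from the gene itself.

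Of the 16, 1 was higher in flu and 0 were lower. The gene that passed was AT5G61560, with signals of 266, 238 and 209 in Ler and 524, 1192 and 1176 in flu. It had no overlap between the genotypes, and like PUB24 it was far higher in flu at 60 min and 2 h than at 30 min. Its mean difference was 1.74 (SE 0.29, adjusted p = 0.0346 by limma, higher at 3 of 3 times). The call was lost without the arrays of 60 min (1.55, adjusted p = 0.306), without the filter on low signals (adjusted p = 0.0749) and with a variance prior without trend (adjusted p = 0.0598), and over all alternatives adjusted p ranged from 0.00150 to 0.306.

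The remaining 15 did not pass, with adjusted p from 0.0627 to 0.873. AT4G36550 had Ler signals of 486, 357 and 409 and flu signals of 982, 1314 and 599, a mean difference of 1.06 (SE 0.25, limma adjusted p = 0.0919). AT3G49810 had 158, 236 and 158 in Ler and 425, 472 and 283 in flu, with a mean of 0.91 (SE 0.18, limma adjusted p = 0.0627). Both were higher at 3 of 3 times, and both passed when the arrays of 2 h were left out (adjusted p = 0.000990 and 0.0106), a setting in which 3 of the 16 were called. PUB43 had a late difference, with signals of 309, 283 and 251 in Ler against 264, 505 and 1174 in flu. Its differences of -0.19, 0.74 and 2.02 share their order with those of PUB19, and its mean did not pass (0.86, SE 0.39, limma adjusted p = 0.286).

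PUB25 and PUB26 are related to the immune trio and are known to mark the immune kinase BIK1 for degradation. PUB25 had 119.5, 84.0 and 111 in Ler and 258, 204 and 114 in flu, so its differences were 0.86 and 0.92 at the first times and 0.02 at 2 h. They averaged 0.60 (SE 0.28, limma adjusted p = 0.292). PUB26 stayed under the median signal on all arrays (105, 97.9 and 75.9 in Ler, 165, 140.3 and 92.2 in flu) and was not tested.

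The mean differences of the other tested loci were between -0.50 and 0.67. They were AT5G67340 (0.67), AT1G67530 (0.61), AT5G18340 (0.35), PUB49 (0.32), which also has a cyclophilin domain, and AT2G45910 (0.15) on the positive side. On the negative side were AT1G71020 (-0.50), AT1G24330 (-0.48), MAC3A (-0.16), AT3G49060 (-0.10), AT3G54790 (-0.09) and MAC3B (-0.06). MAC3A and MAC3B belong to a spliceosome-associated complex, and their signals were 813 to 969 and 1419 to 2142 over the 6 arrays. PUB25 and AT5G67340 reached the filter through flu arrays alone, and AT1G24330 through 1 Ler array alone. Over all 29 loci, tested or not, the median mean difference was 0.15, with 15 positive and 14 negative. Over all 22746 probe sets the median was -0.08, with 8552 positive and 14194 negative. At least 2-fold higher in flu were 1 of the 16 tested at 30 min, 3 at 60 min and 3 at 2 h, where 2.98%, 6.12% and 10.1% of all tested probe sets were. At least 2-fold lower were 0 at each time, where 0.413%, 1.44% and 5.50% were.

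The 13 loci not tested had no signal above 165. Besides PUB26 they were PUB15, AT1G01670, AT1G68940, AT2G19410, AT2G45920, AT3G61390, AT4G25160, AT5G09800, AT5G37490, AT5G40140, AT5G61550 and AT5G65500. At these signals a difference between genotypes may not be detectable on these arrays. The other 23 listed loci, among them PUB12, PUB13 and PUB18, were not analysed here.

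**Figure D4:**
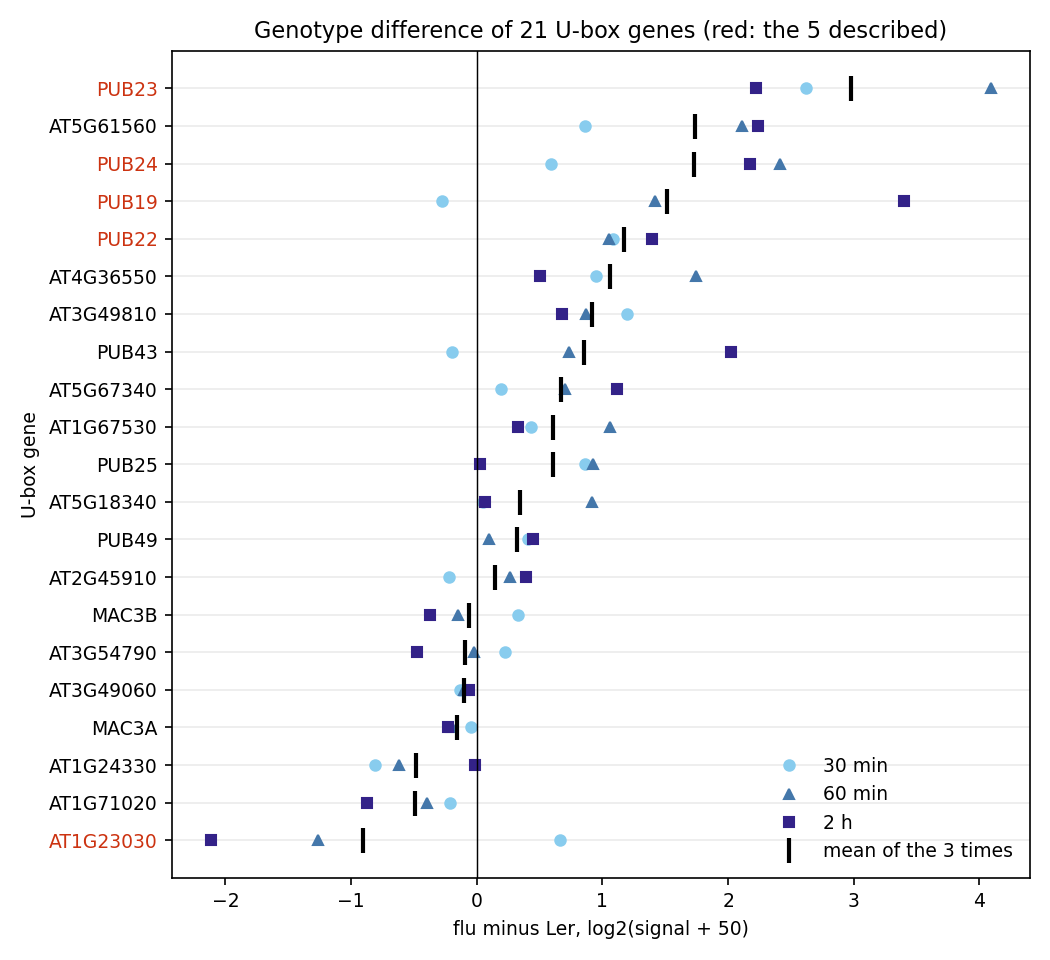
Flu minus Ler on the scale log2(signal + 50) for 21 U-box genes, the 5 chosen (named in red) and the 16 others that were tested. Genes are ordered by the mean of the 3 times (black bar), with circles for 30 min, triangles for 60 min and squares for 2 h. Loci that were not tested are not shown. Means run from -0.90 for AT1G23030 to 2.98 for PUB23, and AT5G61560 (1.74) lies beside PUB24 (1.73).

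A list of possible partners and substrates of U-box ligases held 11 proteins, and 2 had a probe set named for them in the annotation. BIK1 was higher in flu, with signals of 480.3, 502 and 304 in Ler and 1105, 2689.8 and 1620.3 in flu. The genotypes did not overlap, and the flu array of 60 min was the highest. Its mean difference was 1.89 (SE 0.26, adjusted p = 0.0181 by limma, higher at 3 of 3 times). Without the arrays of 60 min it did not pass (1.68, adjusted p = 0.212), and over all alternatives adjusted p ranged from 0.000232 to 0.212. RPN12a, a proteasome lid subunit that PUB22 and PUB23 are known to act on, had 2367, 2298 and 2063 in Ler and 2058, 1873 and 1768 in flu. Its mean difference of -0.23 did not pass (SE 0.14, limma adjusted p = 0.395), and it was also the only proteasome gene measured by symbol.

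Ligases of other families gave 0 calls in the limma fit, in which 2.87% of all tested probe sets were called higher and 0.375% lower. With so few ligases tested, this does not set them apart from other genes. Of 4 ATL genes, which encode membrane-bound RING ligases, 3 were tested and 0 had an unadjusted p under 0.05. Of all 13064 tested probe sets, 1203 had such a p and were higher in flu, and 1464 were lower. The largest was ATL5 at -0.78 (SE 0.42, limma adjusted p = 0.351), with signals of 184, 134 and 219 in Ler and 179, 93.9 and 20.0 in flu, so that its low value lay at 2 h. The next by size was ATL4H at -0.09 (SE 0.19, limma adjusted p = 0.817). Of 13 other RING ligases 2 were measured, AT5G53360 (0.55, SE 0.17, limma adjusted p = 0.162, unadjusted p = 0.0184) and XERICO (0.17, SE 0.17, limma adjusted p = 0.580), a gene known for raising abscisic acid levels.

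The genes with the most similar profiles were found among 6927 tested probe sets of 1 gene, by the root mean square difference of log2 values over the 6 arrays after centring. For PUB24 the nearest was WRKY6, a transcription factor of defence and senescence, at 0.10, and the next was the U-box gene AT5G61560 at 0.14, followed by AT1G78410 (0.15) and AT3G54150 (0.18). WRKY6 had signals of 137, 134 and 87.0 in Ler and 229.6, 859 and 593 in flu, the same order of arrays within flu as PUB24. For PUB22 they were VPS60.1 (0.12) and VPS2.1 (0.13), both of the ESCRT machinery that sorts ubiquitinated membrane proteins, then AT5G48655 (0.14) and AT4G38550 (0.15). PUB22 had Ler signals of 33.7 to 64.4, where the offset of 50 shrinks its differences, while those of VPS60.1 were 309 to 336. The distances were taken with this offset only, and its part in the likeness was not tested.

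PUB23 had no neighbour that close. Its nearest were AT3G55840 (0.37), AT1G24140, AT5G46710 and the lipase gene DLAH (0.39 each). AT3G55840 shared the low 60 min value in Ler, with 66.9, 7.93 and 31.4 there and 317, 607 and 375 in flu. For both genes that value is near background, where MAS5 signals are unsteady, so this likeness rests partly on dim signals. For PUB19 they were AT2G22760 (0.27), AT1G76590 (0.28), AT2G18690 (0.31) and AT3G47550 (0.34). For AT1G23030 they were AT2G18940 (0.16), AT4G28780 (0.24), AT1G04040 and AT3G19680 (0.26 each). Pearson's r over the 6 arrays was 0.949 to 0.995 for these 20 pairs, a description of 6 points that share their arrays.

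Among the 5 genes themselves the distances were larger. PUB24 and PUB19 were 0.53 apart, PUB22 and PUB24 0.54, and PUB22 and PUB23, the closest relatives, 1.04, since the PUB23 differences were larger. AT1G23030 lay 1.24 from PUB22 and 2.09 from PUB23. Pearson's r, which leaves out the size of the changes, was highest among these pairs for PUB22 and PUB23 (0.91). It was negative for every pair with AT1G23030, lowest with PUB19 (-0.86).

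The genes next to the 5 on the chromosomes, by the RefSeq gene order, were looked at as well. Of 10 direct neighbours 5 had a probe set named for them and 3 were tested (AT3G11830 beside PUB24, AT2G35920 beside PUB23 and AT1G60200 beside PUB19). Their mean differences were 0.24, 0.04 and -0.11, with adjusted p from 0.393 to 0.899 by limma, and 0 were called.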

How the data were processed

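The deposited values are MAS5 signals, a linear intensity for each probe set that the authors scaled before deposit, MAS5 being the tool named in the submitters' processing notes (its version, a genome build and detection calls are not given in the sources used here). Since MAS5 takes mismatch signal away from match signal, low values are unsteady. From these values 22810 probe sets were rescaled to a 2% trimmed mean of 500 per array and put on the scale log2(signal + 50), and 64 control probe sets were left out. Probe sets whose highest signal reached the median of all signals (185) were tested, 13064 in all. Flu minus Ler was taken from an additive model of genotype and time (limma 3.58.1, R 4.3.3) with an intensity trend in the prior and Benjamini-Hochberg adjustment. The fit leaves 2 residual degrees of freedom, made up of noise together with differences that vary over the times, so a difference that grows with time is less likely to be called. The fit was tested on simulated data. Alternatives were offsets of 16 and 100, a fit to all probe sets, a 75th percentile filter, quantile normalized signals, signals not rescaled, a fit lacking time, a prior lacking the trend, and each time left out in turn.

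PUB22, PUB23, PUB25 and AT5G67340 passed the filter through flu arrays alone, and ATL5 and AT1G24330 through Ler arrays alone. Genes were named from the platform annotation, in which 13513 probe sets have 1 gene, 503 several and 8794 none and are unnamed here, and from the RefSeq table of TAIR10.1, which matched 13436. No coordinates are given, since no build is named. The members and gene lists were chosen with earlier results of these data known. The genes named were all U-box loci and partners with a probe set, up to 4 called or the 2 largest of each other list, and the 4 nearest profiles of each member. The neighbouring genes were added afterwards. Some lists of the pathway are not reported here. The planned comparison of protein and promoter sequences was not run. Tables and plots were made with Python 3.11.15, pandas 2.3.3, numpy 2.4.6 and matplotlib 3.10.9.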

Additional observations from a re-analysis of the deposited data

Results flagged for a closer look

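The genes looked at here were the 5, the 16 other tested U-box genes and the 2 measured partners. For 3 of them the change from 30 min to 2 h had opposite signs in the 2 genotypes, with each change at least 0.5 on the log2 scale. The share of all tested probe sets that meet this limit was not counted, so nothing is read from the number. For PUB19 the change was -1.63 in Ler and 2.05 in flu, for AT1G23030 it was 0.69 in Ler and -2.09 in flu, and for BIK1 it was -0.58 in Ler and 0.53 in flu. Each of these is the difference of 2 single arrays, and the difference between the genotypes' changes was not tested.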

How the results depend on the processing

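With 1 array per genotype and time, no value has a spread over replicates, and signals under the median are dim enough for the offset to matter. No paired analysis was possible because the arrays carry no replicate numbers, apart from the fit itself, which compares the genotypes within each time. The mean differences of the 5 genes kept their sign under every offset, scaling and left-out time. Under the other offsets and scalings, all but that of PUB22 moved by less than their SD over times. That of PUB22 was 1.55 with an offset of 16 and 0.88 with 100. The SD includes the change of a difference with time, so this limit is lenient for PUB19 and AT1G23030. With a time left out, the mean ranged from 0.57 to 2.41 for PUB19 and from -1.69 to -0.30 for AT1G23030. The SD is no test of left-out times, because with so few times the mean cannot move by that much. The changes from 30 min to 2 h kept their sign under the other offsets and quantile normalization.

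Counts of calls depended most on the times used. Without the 60 min arrays 75 probe sets were called higher and 0 lower in flu, with 0 other U-box genes and 0 partners. Without those of 30 min there were 567 higher and 134 lower. Without those of 2 h there were 595 and 122, with 3 other U-box genes called higher. The number called lower, 49 in the reported fit, was 14 without a filter, 77 with a filter at the 75th percentile, 15 without a trend in the prior and 131 with no time in the fit. Other U-box genes called higher numbered 0 without a filter and 0 without the trend. With no time in the fit 1 gene of a list not reported here was called higher. In the test of 2 h against 30 min, 4 probe sets were called with the filter at the 75th percentile and 0 under the other settings.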
